A study of Homo sapiens with 6 samples.

Results

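The BAF complex, the mammalian SWI/SNF chromatin remodeller, is encoded by a set of subunit genes, and open chromatin at 31 of these genes was examined here in human neural progenitor cells (NPCs) by ATAC-seq. ATAC-seq uses the Tn5 transposase to insert sequencing adapters into accessible DNA, so that open regions appear as peaks of reads. The 31 genes were taken from a list of known BAF subunits and not picked by their values, out of 20033 protein-coding genes of GENCODE version 44 on hg38. Earlier results of these data were, however, known when the list was set. A peak was assigned to the promoter of a gene when it overlapped the 3 kb on either side of the gene start by at least 1 bp, and to the gene body when it overlapped the rest of the gene only.

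The cells were NPCs derived from H1, a human embryonic stem cell line, and all 3 groups share this background. WT NPCs and dKO NPCs were labelled NPC2, the early passage of the study. The dKO cells carry CRISPR/Cas9 deletions of the catalytic domains of JMJD3, encoded by KDM6B, and UTX, encoded by KDM6A, which are demethylases of the repressive histone mark H3K27me3. The third group, dKO-BAF53B, consists of dKO NPCs transduced with a lentivirus that expresses BAF53B, a neuronal BAF subunit encoded by ACTL6B, and its passage is not given in the labels. The labels call these cells NPCs, whereas the study describes its ATAC-seq of BAF53B-rescued cells as made in differentiated cells, so a difference of stage and the effect of BAF53B cannot be told apart in comparisons with this list. Whether the dKO line is 1 clone, and which promoter drives BAF53B, are not given in the sources used here. Each group has 2 samples, but 1 peak list pooled over both was analysed per group, so no value below has a replicate error and none was tested. A difference between lists describes these pooled libraries, and more cells with an open site cannot be told apart from a more open site in each cell.

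The BAF complex uses the energy of ATP to slide or evict nucleosomes. It is built around 1 of 2 alternative ATPases, BRG1 (SMARCA4) and BRM (SMARCA2), together with core, scaffold and accessory subunits, many of which are chosen from small families. As neural progenitors leave the cell cycle and become neurons, several subunits are exchanged. The progenitor form carries BAF53A (ACTL6A), BAF45A (PHF10), BAF45D (DPF2) and SS18, and the neuronal form carries BAF53B (ACTL6B), BAF45B (DPF1), BAF45C (DPF3) and CREST (SS18L1). The other 23 genes were treated as shared.

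There were 7880 peaks in WT, 25439 in dKO and 16948 in dKO-BAF53B. The height of a peak is given as its pileup, the number of sequenced tags, each extended to 150 bp, that cover the summit, and this whole number was recovered for 100% of peaks. The genome background, the mean pileup expected from the total number of tags, was 6.33 in WT, 6.81 in dKO and 6.78 in dKO-BAF53B, and the scaled pileup is the pileup divided by it. Every listed peak has a −log10 q of at least 5 and the lowest listed pileup was 25 in WT and dKO and 26 in dKO-BAF53B, so a gene without a peak may still have a lower signal. Promoter peaks marked 2 of 10 neural progenitor markers in WT (VIM and HES1), 8 in dKO and 6 in dKO-BAF53B, beside 28.2%, 56.4% and 45.0% of all protein-coding genes. The counts were 1, 3 and 2 of 7 neuron markers, 0, 1 and 1 of 5 glia markers, and 0, 2 and 1 of 5 mesenchyme markers. Every marker set thus had its lowest count in WT, the shortest list. SOX1 and SOX2 had no promoter peak in WT and pileups of 46 and 70 in dKO, and PAX6 and NES had none in any list. The study reports chromatin at SOX2, SOX1 and NES as more closed in dKO than in WT NPCs. It used signal comparisons and genome views, whereas presence in a peak list is counted here. For SOX1 and SOX2 the order here is the opposite, and NES has no peak to compare. The study reports reduced accessibility in dKO at MAP2 and TUBB3 too. Here MAP2 had pileups of 33 in WT and 69 in dKO, and TUBB3 had no peak in WT and 53 in dKO. The reason for this difference was not tested. Of 5 pluripotency markers 0, 2 and 1 had a promoter peak, with POU5F1 and NANOG at none in any list. KDM6A and KDM6B, whose promoters lie outside the deleted parts and so do not check the genotype, had pileups of 45 and 173 in dKO, against no peak and 53 in WT.

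A promoter peak was listed for 16 of the 31 BAF genes in WT, 25 in dKO and 23 in dKO-BAF53B. Over all protein-coding genes the shares were 28.2% in WT, 56.4% in dKO and 45.0% in dKO-BAF53B, so the BAF genes (51.6%, 80.6% and 74.2%) were above the background share in each list. Over all protein-coding genes, 5656 had a peak in WT and 5363 (26.8% of all genes) had one in all 3 lists, so most genes with a WT peak kept one. All 16 BAF genes with a peak in WT also had one in both other lists. These were ACTL6A, ACTL6B, SMARCA4, SMARCC1, SMARCC2, SMARCD1, SMARCD2, ARID1A, ARID2, PBRM1, DPF2, DPF3, SS18, BCL7B, ACTB and BICRA. A further 9 genes (29.0%) had a peak in dKO and not in WT, near the 28.6% of all genes, and 0 had one in WT and not in dKO, against 0.399% of all genes. Of these 9, SMARCE1, BCL7C, BICRAL and BCL11B also had a peak in dKO-BAF53B, whereas BRD9, DPF1, PHF10, SS18L1 and BCL7A did not. The shares of all genes with these patterns were 16.2% for dKO and dKO-BAF53B without WT, and 12.4% for dKO alone. The same 5 genes were those listed in dKO and not in dKO-BAF53B, against 13.5% of all genes. SMARCD3, ARID1B and BRD7 had a peak in dKO-BAF53B and not in dKO, which 2.05% of all genes did. These 3 peaks were weak, with a −log10 q of 5.25, 7.03 and 5.10, and none was listed with lists of equal length. At that length this pattern held for 6.45% of the BAF genes, ACTB and PBRM1, and 5.11% of all genes. SMARCA2, SMARCB1 and BCL11A had no promoter peak in any list, which 41.3% of all genes did.

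The lengths of the lists bear on these counts. When each list was reduced to its 7880 peaks of highest −log10 q, the BAF genes with a promoter peak numbered 16, 15 and 14 in WT, dKO and dKO-BAF53B, and the shares of all genes were 28.2%, 33.3% and 31.1%. The lowest −log10 q kept was then 5.00 in WT, 14.7 in dKO and 9.20 in dKO-BAF53B, so the cut was strictest in dKO. At this length 2 genes, BCL11B and BCL7C, had a peak in dKO without one in WT, against 9.35% of all genes, and 3 genes, ACTL6B, PBRM1 and ACTB, had one in WT and not in dKO, against 4.24%. PBRM1 and ACTB had a higher −log10 q in dKO (13.8 and 10.7) than in WT (11.2 and 7.04), and only ACTL6B a lower one (5.95 against 10.1). The start used also bears on the counts. The canonical transcript of SMARCA2, ACTB, SMARCD3 and DPF1 starts over 3 kb from the outermost start, and with canonical starts the calls of these 4 genes, ARID1B and BCL11A were different in at least 1 list. With canonical starts 16, 27 and 25 BAF genes had a promoter peak, beside 29.0%, 58.7% and 46.6% of all genes, and 11 had one in dKO without one in WT, beside 30.1%.

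**Figure D1:**
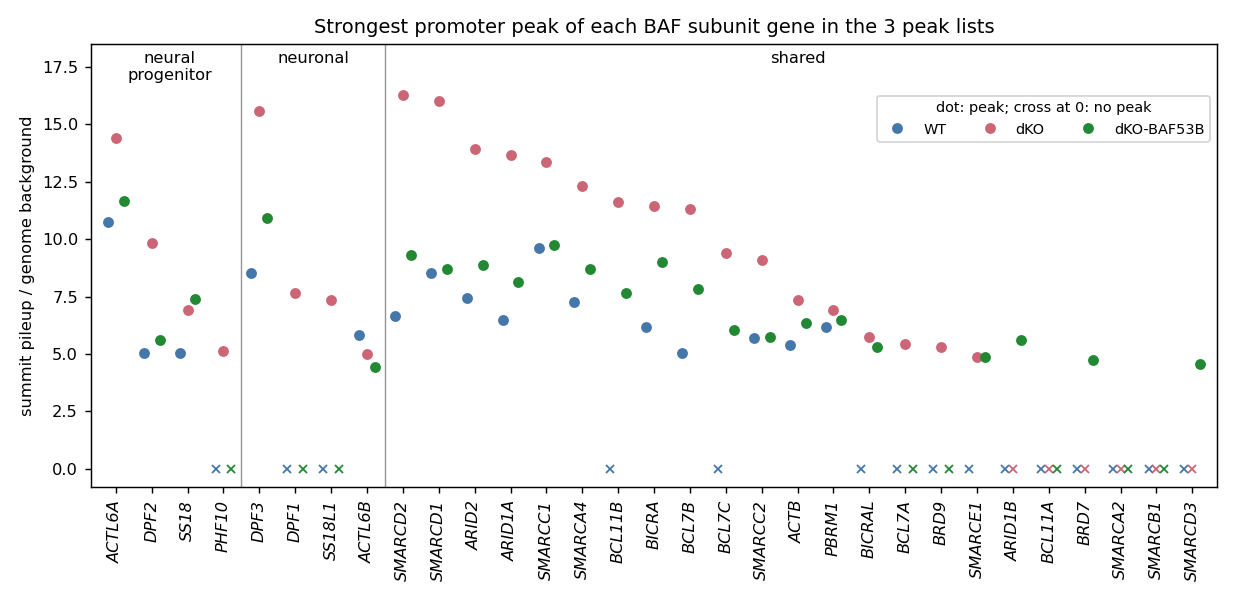
Scaled pileup (summit pileup over genome background, linear axis) of the strongest promoter peak of each of the 31 BAF subunit genes, as dots coloured by list; a cross at 0 means that no peak was listed. The dKO dot is the highest of the 3 for most genes, up to 16.3 at SMARCD2, whereas for ACTL6B the WT dot (5.84) lies above the dKO and dKO-BAF53B dots (4.99 and 4.43).

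Among the subunits exchanged during neurogenesis, promoter peaks were listed for 3, 4 and 3 of the 4 progenitor genes in WT, dKO and dKO-BAF53B, and for 2, 4 and 2 of the 4 neuronal genes. Of the 23 shared genes 11, 17 and 18 had one, and the shares of all genes were 28.2%, 56.4% and 45.0%. The neuronal counts were 2, 1 and 1 with lists of equal length, 2, 2 and 1 at a −log10 q of at least 10, and 2, 4 and 4 with the starts of all annotated transcripts, so the order of the lists in this class was not the same under these settings. The sequences just upstream of the starts of 7 exchanged genes, which lie under or next to these peaks, are shown from the RefSeq promoter table (GRCh38.p14), on the strand of the gene and ending before any annotated exon. Capitals mark 2 short motifs on either strand, CCAAT, the NFY box, and GGGCGGGG, the SP/KLF box. ACTL6A was not matched in that table.

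The progenitor promoters are PHF10 (chr6:169724501-169724712, minus strand), DPF2 (chr11:65333602-65333842, plus strand) and SS18 (chr18:26091220-26091469, minus strand).
PHF10: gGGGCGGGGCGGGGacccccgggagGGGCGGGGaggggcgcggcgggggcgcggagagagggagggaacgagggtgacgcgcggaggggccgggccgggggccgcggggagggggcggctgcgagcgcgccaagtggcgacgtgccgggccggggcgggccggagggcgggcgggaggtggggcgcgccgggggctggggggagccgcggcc
DPF2: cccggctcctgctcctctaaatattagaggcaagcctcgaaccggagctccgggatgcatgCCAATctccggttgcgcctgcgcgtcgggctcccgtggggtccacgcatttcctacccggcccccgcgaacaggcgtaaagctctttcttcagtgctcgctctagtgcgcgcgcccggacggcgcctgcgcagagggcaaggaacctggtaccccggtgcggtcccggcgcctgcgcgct
SS18: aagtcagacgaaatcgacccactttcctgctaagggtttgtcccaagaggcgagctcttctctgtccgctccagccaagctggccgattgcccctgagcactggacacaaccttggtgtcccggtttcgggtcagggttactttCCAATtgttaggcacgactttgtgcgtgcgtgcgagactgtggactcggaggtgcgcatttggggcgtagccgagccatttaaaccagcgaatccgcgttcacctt

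The neuronal promoters are ACTL6B (chr7:100656449-100656698, minus strand), DPF1 (chr19:38229715-38229945, minus strand), DPF3 (chr14:72894102-72894351, minus strand) and SS18L1 (chr20:62143519-62143768, plus strand).
ACTL6B: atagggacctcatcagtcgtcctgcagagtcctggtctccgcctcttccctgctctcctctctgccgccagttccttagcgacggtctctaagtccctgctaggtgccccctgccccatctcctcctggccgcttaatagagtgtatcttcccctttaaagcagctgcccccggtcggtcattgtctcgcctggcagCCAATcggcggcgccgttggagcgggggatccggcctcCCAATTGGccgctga
DPF1: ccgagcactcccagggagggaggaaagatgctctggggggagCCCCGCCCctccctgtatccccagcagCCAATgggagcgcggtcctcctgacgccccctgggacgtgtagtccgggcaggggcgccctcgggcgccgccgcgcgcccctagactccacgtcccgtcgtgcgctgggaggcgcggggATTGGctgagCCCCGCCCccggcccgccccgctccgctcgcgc
DPF3: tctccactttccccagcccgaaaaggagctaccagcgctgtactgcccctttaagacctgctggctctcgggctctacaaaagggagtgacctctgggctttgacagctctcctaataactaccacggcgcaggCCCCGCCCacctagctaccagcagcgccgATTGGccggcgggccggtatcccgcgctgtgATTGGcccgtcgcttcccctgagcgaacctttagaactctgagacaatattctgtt
SS18L1: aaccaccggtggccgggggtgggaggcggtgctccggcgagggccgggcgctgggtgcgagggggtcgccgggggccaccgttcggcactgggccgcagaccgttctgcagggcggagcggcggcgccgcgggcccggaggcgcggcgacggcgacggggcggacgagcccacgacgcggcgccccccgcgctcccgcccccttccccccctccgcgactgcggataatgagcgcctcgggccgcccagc

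The CCAAT box occurs in 3 of the 4 neuronal promoters shown, those of ACTL6B, DPF1 and DPF3, and in DPF2 and SS18 of the progenitor set. PHF10 and SS18L1 hold none, and the PHF10 stretch begins with a run of SP/KLF boxes.

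The actin-like subunits ACTL6A and ACTL6B are alternatives that occupy the same position in the complex. ACTL6A (ENSG00000136518.17, chr3:179562886-179588407, plus strand) had a pileup of 68 in WT, 98 in dKO and 79 in dKO-BAF53B, with the summit between 70 and 87 bp upstream of the gene start in each list. It was among the tallest promoter peaks of each list, at percentile 95.4 in WT, 86.7 in dKO and 93.0 in dKO-BAF53B of all genes with a promoter peak. The scaled pileup of dKO was 1.34 times that of WT, with a 95% interval of 0.97 to 1.85. This and the intervals that follow are exact (Clopper-Pearson) and cover counting error only.

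ACTL6B (ENSG00000077080.10, chr7:100643097-100656448, minus strand), the endogenous gene of the subunit expressed from the lentivirus, had a pileup of 37 in WT, 34 in dKO and 30 in dKO-BAF53B. The 3 values lie close together, and the ratios were 0.85 for dKO over WT (0.52 to 1.40) and 0.89 for dKO-BAF53B over dKO (0.52 to 1.49). Within each list, however, it stood at percentile 37.6 in WT, 9.36 in dKO and 3.59 in dKO-BAF53B. Its −log10 q was 10.1, 5.95 and 5.14. With lists of equal length its peak was listed in WT alone, but the lowest −log10 q kept there was 5.00 in WT, 14.7 in dKO and 9.20 in dKO-BAF53B. Of 5576 genes with a promoter peak in both lists, 66 had a lower dKO over WT ratio than ACTL6B. The WT and dKO-BAF53B summits lay 51 and 46 bp upstream of the start and the dKO summit 30 bp downstream, in a peak 1424 bp wide that extended into the gene, against 465 bp in WT and 224 bp in dKO-BAF53B. No list held a peak in the rest of the ACTL6B body.

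The PHD finger subunits of the BAF45 family read histone tails. PHF10 (ENSG00000130024.15, chr6:169703902-169725566, minus strand) had peaks in dKO alone, with pileups of 35 and 25. The taller summit lay 182 bp upstream of the start of the canonical transcript, within the stretch printed above, and the other 911 bp downstream of it, in intron 1. DPF2 (ENSG00000133884.11, chr11:65333843-65354262, plus strand), a subunit also used outside the nervous system, had pileups of 32, 67 and 38 in WT, dKO and dKO-BAF53B. Its dKO value was 1.95 times that of WT (1.26 to 3.06), and dKO-BAF53B was 0.57 times dKO (0.37 to 0.86), so that the dKO list stood apart from the other two.

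DPF3 (ENSG00000205683.12, chr14:72609034-72894101, minus strand) had the tallest peak of the neuronal set in every list, with pileups of 54, 106 and 74. The dKO over WT ratio was 1.82 (1.3 to 2.58) and the dKO-BAF53B over dKO ratio 0.70 (0.51 to 0.95), and DPF3 ranked at percentile 83.5, 90.0 and 90.3. DPF1 (ENSG00000011332.22, chr19:38211006-38229714, minus strand) had a peak at its gene start in dKO alone, with a pileup of 52 and the summit 176 bp upstream, inside the printed stretch. A second DPF1 site, 12 bp upstream of the start of the canonical transcript and 5492 bp into the gene from its outermost start, had pileups of 56 in dKO and 42 in dKO-BAF53B and no WT peak. Both DPF1 sites were thus absent from the WT list, and the call in dKO-BAF53B depends on which start is used.

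The third pair comprises SS18 and SS18L1, which are alternatives in the same position. SS18 (ENSG00000141380.14, chr18:26016253-26091217, minus strand) had pileups of 32, 47 and 50, and was higher in dKO-BAF53B than in dKO, with a ratio of 1.07 (0.70 to 1.63), although by the authors' fold it was slightly lower. SS18L1 (ENSG00000184402.15, chr20:62143769-62182514, plus strand) had a peak in dKO alone, with a pileup of 50 and the summit 225 bp upstream of its start. That summit lies 104 bp from the start of PSMA7, a proteasome gene, so this peak cannot be given to SS18L1 alone, and with peaks kept only where the member has the nearest start SS18L1 had none.

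**Figure D2:**
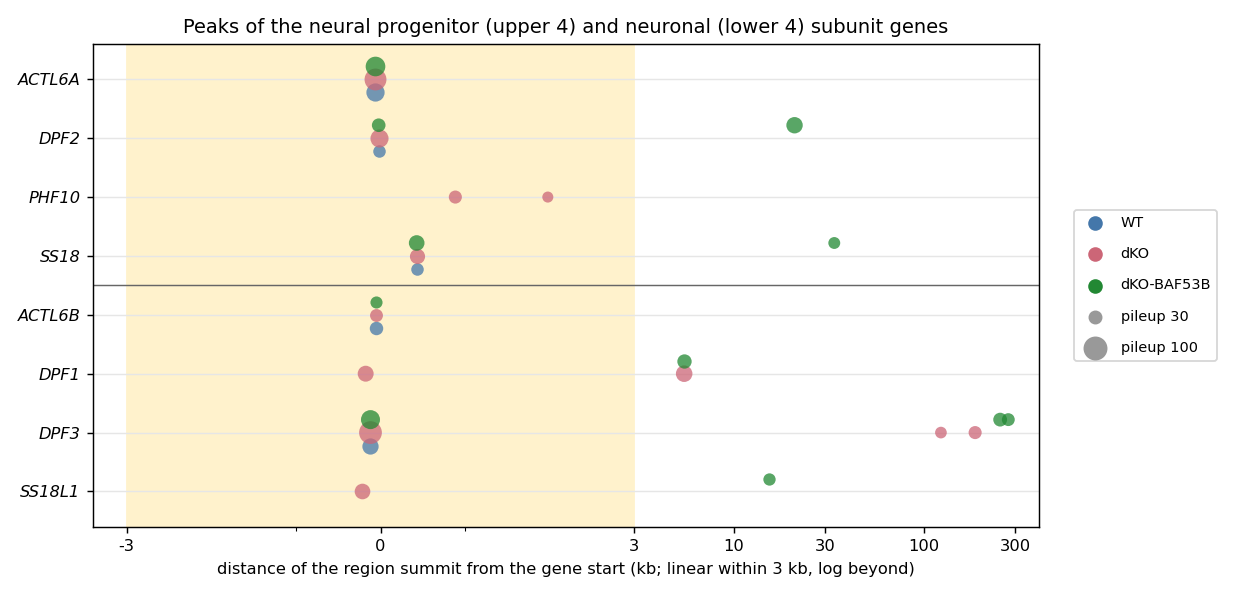
Peaks at the 8 exchanged subunit genes by distance from the gene start (kb, linear within 3 kb and log beyond, downstream to the right), with overlapping peaks drawn at the summit of the tallest, coloured by list and sized by pileup; the shaded band is the promoter window. ACTL6A, DPF2, SS18, ACTL6B and DPF3 have a promoter peak in all 3 lists, whereas PHF10, DPF1 and SS18L1 have one in dKO alone.

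The ATPases drive remodelling and define the complex. SMARCA4 (ENSG00000127616.22, chr19:10960932-11079426, plus strand) had a pileup of 46 in WT, 84 in dKO and 59 in dKO-BAF53B, with summits between 87 and 90 bp upstream of the start. The dKO over WT ratio was 1.70 (1.17 to 2.49), at percentile 49.5 of all genes, and the dKO-BAF53B over dKO ratio was 0.71 (0.50 to 1.0). SMARCA2 (ENSG00000080503.25, chr9:1980290-2193624, plus strand) had no peak within 3 kb of its outermost start. At the start of its canonical transcript, 35057 bp downstream, it had a peak of pileup 57 in WT, 55 in dKO and 59 in dKO-BAF53B. The dKO over WT ratio there was 0.90 (0.61 to 1.32), so SMARCA2 and ACTL6B were the genes of the list whose scaled pileup was lower in dKO than in WT. The part of its promoter that lies outside annotated exons (chr9:2015097-2015185, plus strand) is shown to give the base composition at this site, which was open at close to the same height in the 3 lists. None of the motifs searched lies in this stretch.
SMARCA2: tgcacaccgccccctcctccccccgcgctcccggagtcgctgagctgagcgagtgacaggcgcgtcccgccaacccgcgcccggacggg

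Among the core and scaffold genes, SMARCB1 (ENSG00000099956.20, chr22:23786931-23838009), which anchors the complex to the nucleosome, had no peak in its promoter or body in any list. The scaffold genes SMARCC1 and SMARCC2 had peaks in all lists, with pileups of 61, 91 and 66 for SMARCC1 and 36, 62 and 39 for SMARCC2. In both, the WT and dKO-BAF53B values differed by less than the dKO value did from either. The SMARCD genes encode the BAF60 subunits, which contact transcription factors. SMARCD2 had pileups of 42, 111 and 63 and the highest dKO over WT ratio of the list, 2.46 (1.71 to 3.59). SMARCD1 had pileups of 54, 109 and 59 and the lowest dKO-BAF53B over dKO ratio, 0.54 (0.39 to 0.75), followed by DPF2 and SMARCD2, both at 0.57. SMARCD3 had a peak in dKO-BAF53B alone, with a pileup of 31, near the bottom of that list at percentile 5.54 and 725 bp inside the outermost start, and none at its canonical start 29202 bp away. SMARCE1, a DNA-binding HMG box subunit, had a pileup of 33 in both dKO and dKO-BAF53B and no WT peak.

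The ARID subunits and PBRM1 separate the forms of the complex, ARID1A and ARID1B belonging to canonical BAF, and ARID2, PBRM1 and BRD7 to the PBAF form. ARID1A had pileups of 41, 93 and 55 at its strongest promoter peaks, a dKO over WT ratio of 2.11 (1.45 to 3.12), but these peaks were at different places. At the site next to the gene start, pileups were 41, 87 and 55, whereas the site 2399 bp downstream, close to the canonical start, was listed in dKO (93) and dKO-BAF53B (47) and not in WT. Within 3 kb of its outermost start ARID1B had a peak in dKO-BAF53B alone (pileup 38), and around its canonical start dKO also had one (44), at another site in intron 1. ARID2 had pileups of 47, 95 and 60, with 2 sites in every list, and the taller was 1 site in WT and dKO-BAF53B and the other in dKO. One of the ARID2 sites lies 203 bp from the start of the non-coding gene LINC00938. PBRM1, the polybromo subunit, differed least among the genes with a ratio above 1, with pileups of 39, 47 and 44 and ratios of 1.12 (0.72 to 1.76) and 0.94 (0.61 to 1.45). BRD7 had a peak in dKO-BAF53B alone, with a pileup of 32, near the bottom of that list at percentile 7.99.

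BRD9, BICRA and BICRAL mark the non-canonical form of the complex. BICRA had pileups of 39, 78 and 61, whereas BICRAL was listed in dKO (39) and dKO-BAF53B (36) only, 811 to 813 bp inside the gene. BRD9 had a peak in dKO alone (36) that lies 92 bp from the start of TRIP13, and so is shared between 2 divergent genes. The BCL7 genes encode small subunits of unclear function. BCL7B had pileups of 32, 77 and 53 and a dKO over WT ratio of 2.24 (1.46 to 3.49), BCL7A a peak in dKO alone (37), and BCL7C pileups of 64 in dKO and 41 in dKO-BAF53B. The tallest BCL7C peak in dKO lay at its own start, but the one in dKO-BAF53B lay at a second site 62 bp from the start of CTF1, where dKO had a pileup of 52. The zinc finger subunits BCL11A and BCL11B are known from blood and brain development. BCL11B had a pileup of 79 in dKO and 52 in dKO-BAF53B at a site whose summit lay at −2658 and −2578 bp from its start, and a peak over its start (41) in dKO-BAF53B alone, whereas BCL11A had none at its gene start. ACTB, the actin that is also a BAF subunit, had pileups of 34, 50 and 43 at its strongest promoter peaks. Their summits lay at different places, 1785, 174 and 985 bp downstream of its outermost start, and the WT peak overlapped no dKO peak. Around its canonical start 33301 bp away it was listed in dKO (59) and dKO-BAF53B (44), at different sites, and not in WT.

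Taking the strongest promoter peak of each gene, the scaled pileup was higher in dKO than in WT in 15 of the 16 BAF genes with a peak in both, which 96.3% of all such genes were. The median log2 ratio was 0.82, beside 0.77 over 5576 genes. The dKO value was at least 2-fold that of WT in 3 genes (SMARCD2, BCL7B and ARID1A), against 27.7% of all genes. With peaks compared only where they overlap, which left out ACTB, ARID1A was at 1.97 (1.35 to 2.93) and ARID2 at 2.39 (1.62 to 3.59). In that comparison 3 of 15 genes were past 2-fold. In the first comparison the counting interval lay above 1 in 10 of 16 and below 1 in 0. Interval counts, here and below, were made for the BAF genes only, so no share over all genes stands beside them. From dKO to dKO-BAF53B the median log2 ratio was −0.51 over 20 BAF genes and −0.44 over 8604 genes. By gene starts the ratio was above 1 for SS18 (1.07) and SMARCE1 (1.005), as for 13.7% of all genes. The intervals of both included 1, and SMARCE1 had the same pileup of 33 in both lists, so only the scaling separates them. At its canonical start SMARCA2 had a ratio of 1.08. The interval lay below 1 in 11 of 20. None of the 20 reached 2-fold in either direction, against 6.89% of all genes lower and 0.0232% higher. Between dKO-BAF53B and WT the median log2 ratio was 0.25 over 16 BAF genes and 0.27 over 5397 genes, and the interval of every BAF gene included 1. Both comparisons with dKO share the dKO list, so a high dKO value moves them in opposite directions.

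The measure of height bears on these sizes. By the authors' fold, which divides by the local background of each peak, the median log2 ratio of dKO over WT was 0.44 and that of dKO-BAF53B over WT 0.026. On this scale PBRM1 (log2 −0.042) and ACTB (−0.060) were lower in dKO than in WT, as was ACTL6B (−0.48), and the other 13 of the 16 genes remained higher. Likewise ACTL6B (0.019), ACTB (0.071), BICRA (0.13) and SMARCE1 (0.079) were higher in dKO-BAF53B than in dKO, and SS18 (−0.048) was lower.

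**Figure D3:**
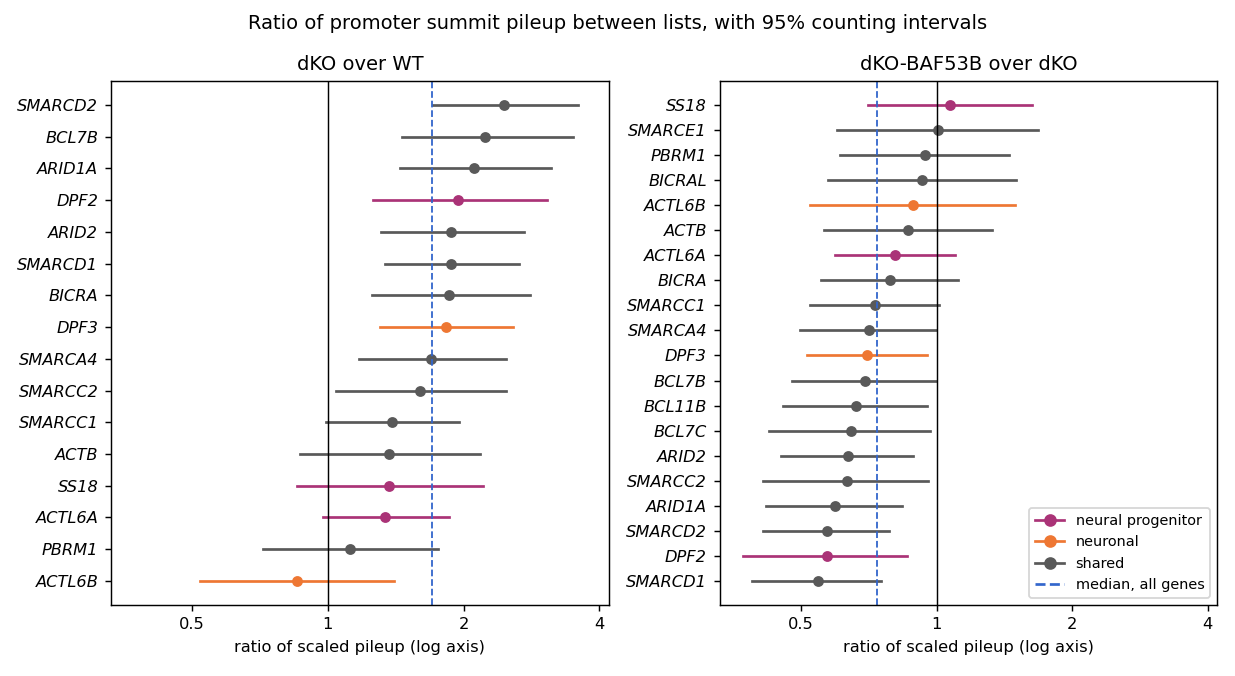
Ratio of the scaled pileup of the strongest promoter peak (log axis) for BAF genes with a peak in both lists, dKO over WT on the left and dKO-BAF53B over dKO on the right; bars are 95% counting intervals, colours are subunit classes, and the dashed line is the median over all genes. ACTL6B is the only gene left of 1 on the left, and its interval ends left of the dashed line; on the right 18 of 20 genes lie left of 1.

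Promoter peaks were broader in dKO across all genes, and the BAF genes followed this. They were wider in dKO than in WT in 13 of 16 BAF genes and in 86.9% of 5576 genes, with medians of 1103 bp against 528.5 bp for the BAF genes and 888 bp against 573 bp for all genes. The summits of the BAF genes differed by a median of 38 bp, within 100 bp in 11 of 16. In dKO-BAF53B peaks were wider than in dKO in 7 of 20 BAF genes and 43.0% of 8604 genes, with BAF medians of 786 bp and 964.5 bp.

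Outside the promoter windows, the BAF gene bodies held 7 peaks in WT, 29 in dKO and 19 in dKO-BAF53B. With lists of equal length they held 7, 4 and 7, so this order was not kept. The values that follow are from the full lists. A body peak was present in 3, 13 and 14 of 31 genes, against 9.34%, 27.1% and 19.8% of all genes, but BAF genes are longer, with a median length of 51.1 kb against 27.5 kb. Per Mb of gene body the densities were 2.70, 11.2 and 7.33 peaks, beside 1.64, 7.0 and 4.43 over all genes. Without ARID1B, which held 5 of the 7 WT peaks, the BAF densities were 0.925, 10.2 and 7.40, so that the WT value was then below that of all genes. Joined across lists these peaks formed 44 regions, of which 21 were in dKO alone, 11 in dKO-BAF53B alone, 4 in WT alone, 5 in dKO and dKO-BAF53B, and 3 in all lists. Of the 44, 10 lay within 1 kb of another annotated start of the same gene.

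The 3 regions found in all lists were the canonical start of SMARCA2 given above, a site in intron 1 of ARID1A and a site in intron 4 of ARID1B. The ARID1A site, 2205 bp downstream of the canonical start, had pileups of 42, 46 and 43, close to level across the lists. The ARID1B site, 244199 bp downstream of the canonical start, had pileups of 33, 45 and 45, and lies 709 bp from the start of another annotated ARID1B transcript. It is shown over the 200 bases around its summit (hg38, chr6:157021477-157021676, plus strand), with SP/KLF boxes in capitals, because it is the one site of the longest BAF gene that was open in every list.
ARID1B: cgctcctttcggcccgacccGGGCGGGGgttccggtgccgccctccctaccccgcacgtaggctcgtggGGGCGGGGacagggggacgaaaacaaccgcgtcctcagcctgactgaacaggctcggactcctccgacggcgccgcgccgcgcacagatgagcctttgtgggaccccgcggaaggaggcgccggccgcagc

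ARID1B, at 434.8 kb the longest of the 31 genes, held 5 body peaks in WT, 7 in dKO and 3 in dKO-BAF53B, and all 4 regions seen in WT alone were in it, with pileups of 25 to 29 near the lowest listed. Among the exchanged subunits, ACTL6A, ACTL6B and PHF10 had no body peak. DPF3 had 2 in dKO, in introns 2 and 6 (pileups 28 and 35), and 2 others in dKO-BAF53B, in intron 8 and exon 11 (39 and 34). SS18 (29, intron 4), SS18L1 (31, intron 2) and DPF2 (55) each had 1 in dKO-BAF53B alone, and the DPF2 peak, at the end of the gene, lies 78 bp from the start of TIGD3. The tallest body peak of dKO-BAF53B away from any annotated start was in intron 4 of ARID1A (53).

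**Figure D4:**
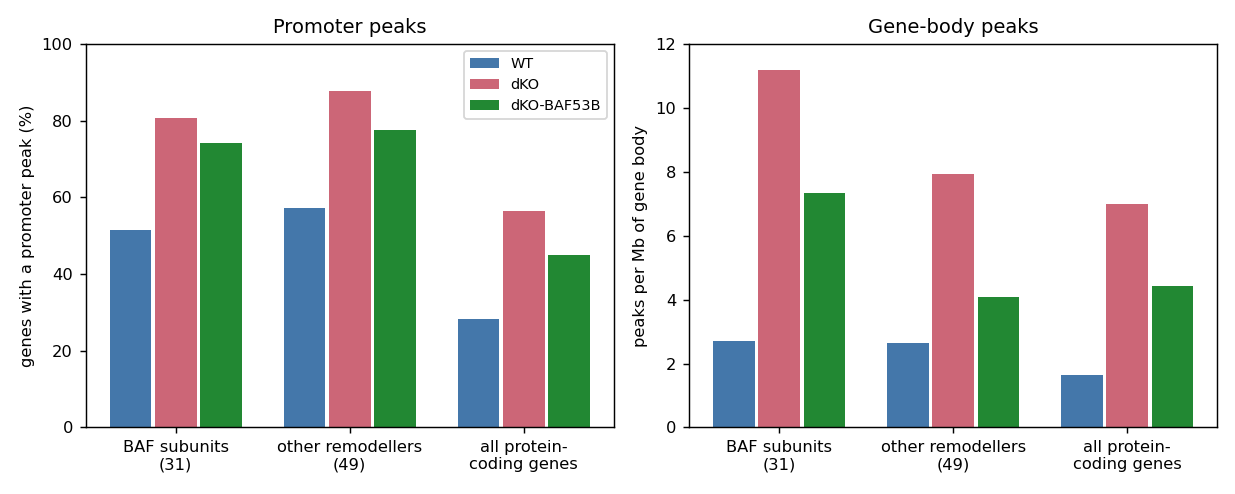
Left, percent of genes with a promoter peak, and right, peaks per Mb of gene body (linear axes from 0), for the 31 BAF genes, 49 genes of other remodellers and all 20033 protein-coding genes, with bars coloured by list. In each set dKO is highest and WT lowest, which is also the order of the list lengths, and the BAF genes reach 11.2 body peaks per Mb in dKO.

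The genes of other ATP-dependent remodellers (ISWI, CHD, NuRD, INO80 and SRCAP families) gave promoter values close to those of the BAF genes, and lower body densities in dKO and dKO-BAF53B. The promoters of 28, 43 and 38 of 49 such genes held a peak in WT, dKO and dKO-BAF53B. In 15 of them the peak was in dKO without one in WT, and the median log2 ratios were 0.87 for dKO over WT (28 genes) and −0.49 for dKO-BAF53B over dKO (38 genes). Their body densities were 2.65, 7.94 and 4.09 peaks per Mb in WT, dKO and dKO-BAF53B, and 18.4%, 30.6% and 20.4% of them had a body peak, against 9.68%, 41.9% and 45.2% of the BAF genes.

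The BAF promoters share a CpG-rich composition. Over 500 bp on either side of the canonical start, the CpG observed over expected value was at least 0.6 in 31 of 31 genes, against 66.3% of all genes, with a median of 0.861 against 0.725. The lowest were the neuronal genes DPF1 (0.681) and ACTL6B (0.684), followed by SMARCD1 (0.695), and SS18L1 (1.06) was among the highest. SMARCB1, which had no promoter peak at either start, was close to the median (0.855). In the RefSeq promoters (250 bases before to 50 after the start), which matched 26 of 31 genes, the NFY box CCAAT was present in 12 of 26 against 36.4% of 15843 promoters, the SP/KLF box GGGCGGGG in 10 of 26 against 31.6%, the YY1 motif AAGATGGC in 3 (DPF2, SMARCD1 and BCL11B) against 3.91%, and the AP-1 motifs TGAGTCA or TGACTCA in 2 (SMARCA2 and SMARCB1) against 3.66%. The NRF1 motif GCGCATGCG, the ETS motif CCGGAAGT and the RFX motif GTTGCCATG were present in 0 of 26, against 2.76%, 6.19% and 0.839%. All were searched on both strands, and no motif contains another. SMARCC1, SMARCC2, ARID2, ACTL6A and ACTB were not matched. REST, which holds neuronal genes silent in other cells, binds an element searched here as TTCAGCACC and GGACAGCGC with 2 bases between and at most 3 mismatches of 18 letters. It was found within 1 kb of the canonical start in 0 of 31 BAF genes, the 4 neuronal ones included, against 1.02% of all genes. For sets of this size a count of 0 is near that share.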

How the data were processed

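ATAC-seq libraries of 3 groups with 2 replicates each were analysed from 3 peak lists, each pooled over both replicates per the labels, so leaving out a replicate and any test between groups were not possible. According to the methods and the submitters' processing notes, cutadapt 1.13 trimming, Bowtie2 2.2.5 alignment to hg38, duplicate removal by SAMtools 1.3.1 and Picard 1.90, and MACS2 peak calling were done by the authors. The MACS2 version and options, and any Tn5 shift, are not given in the sources used here. Each deposited peak has a fold ratio over local background, −log10 p-value and −log10 q-value, a score derived from the −log10 p-value, and a summit position; the authors' differential calls were not used here.

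The whole pileup and local background of each peak were solved from the deposited fold (pseudocount 1) and −log10 p-value, as Poisson values, which also gave the 150 bp tag extension and a 10 kb background window. This step was tested on simulated data. The strongest promoter peak of a gene was used. A ratio was called at 2-fold, intervals are exact at 95%, and a percentile is taken among the strongest promoter peaks of all protein-coding genes with one in that list. Genes, exons and canonical (Ensembl) transcripts are from GENCODE version 44, whose chromosomes held all 50267 peaks. All 31 members are named; full values are given for exchanged subunits, ATPases, genes whose promoter call differed between lists, and the 3 highest and 3 lowest ratios. The members, lists and motifs were chosen with earlier results of these data known. Alternatives tried were a 1 kb window, equal list length, a −log10 q threshold of 10, all transcript starts, summit position, nearest start and the authors' fold; canonical starts, overlapping peaks only and leaving out ARID1B were added after the data were seen. Scripts ran in Python 3.11.15 with scipy 1.17.1 and numpy 2.4.6 for intervals, pandas 2.3.3 for tables and matplotlib 3.10.9 for plots.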

Additional observations from a re-analysis of the deposited data

How the results depend on the processing

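Of 140 values recomputed under other settings, 115 stayed close to the reported value and 25 moved. A reversal of sign was defined for the median log2 ratios only, and 0 of these reversed. Counts could only stay or move, so a change in the order of the lists was not labelled. With a −log10 q of at least 10, members with a promoter peak were 8 in WT and 13 in dKO-BAF53B, 1 gene had one in WT and not in dKO, progenitor genes in WT were 1, neuronal genes were 2 in dKO and 1 in dKO-BAF53B, shared genes were 5 in WT and 10 in dKO-BAF53B, and gene body peaks were 1, 10 and 5. At equal list length the lowest −log10 q kept was 5.00 in WT, 14.7 in dKO and 9.20 in dKO-BAF53B. Members with a promoter peak were then 16 in WT, 15 in dKO and 14 in dKO-BAF53B, so the order of the lists changed. In that setting 2 members had one in dKO and not in WT and 3 the reverse. Neuronal genes were 1 in dKO and 1 in dKO-BAF53B, and shared genes were 11 in dKO and 11 in dKO-BAF53B. Gene body peaks were 7 in WT, 4 in dKO and 7 in dKO-BAF53B, so dKO was then the lowest. With the starts of all annotated transcripts, neuronal genes in dKO-BAF53B were 4. With the authors' fold, the median log2 ratio was 0.44 for dKO over WT and 0.026 for dKO-BAF53B over WT. The cause of these shifts was not tested, other than that a stricter threshold or a shorter list holds fewer peaks. Without ARID1B, left out after seeing the data, gene body peaks in WT were 2. With canonical starts, chosen after seeing the data, 16, 27 and 25 members had a promoter peak and 11 had one in dKO and not in WT. No paired analysis was possible because the replicates of a group were merged into 1 list, and for that reason no replicate was left out. With pileups of 32 to 68 in WT and 34 to 111 in dKO at these promoters, counting error alone left the ratio of 6 of 16 genes between dKO and WT not separable from 1.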
